A study of Mus musculus with 6 samples.

Results

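Tetrahydrobiopterin (BH4) is a reduced pterin that cells build from GTP, and the 6 genes described here encode the enzymes that make and recycle it and the protein that regulates the first step. All 6 listed genes (Gch1, Gchfr, Pts, Spr, Qdpr and Pcbd1) were measured, among 22180 named genes in all. Each was chosen by name as part of the pathway, and each is represented by the array row of that gene symbol with the highest mean over all arrays. Every member had 1 such row and no other, so the choice of row used levels but set no value aside. The pathway was singled out with earlier results of these data known.

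The cells were RET, a mouse melanoma line of strain C57BL\6 per the labels. They carried either a non-targeting control shRNA (3 cultures, whose titles also carry the word GFP, not interpreted here) or an shRNA against Angpt2, the gene of the secreted vessel ligand angiopoietin-2, called Angpt2 shRNA-1 (3 cultures, called silenced cultures below). All were seeded in equal cell numbers and grown for 24 h in high-glucose DMEM with 10% serum, antibiotics and non-essential amino acids. Transcripts were read from 100 ng of total RNA on 1 Affymetrix Mouse Gene 2.0 ST array per culture, as normalized intensity on a linear scale. The groups hold 1 hairpin against Angpt2 and no rescue, and whether cultures came from separate transductions is not stated, so Angpt2 loss cannot be told apart from other differences between the 2 cell populations. In whole cultures, fewer cells expressing a gene and less RNA per cell cannot be told apart either.

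The pathway starts with GTP cyclohydrolase, encoded by Gch1, which opens the ring of GTP and is the rate-limiting step. The regulator encoded by Gchfr binds this enzyme and lets BH4 restrain it and phenylalanine relieve the restraint. Pyruvoyltetrahydropterin synthase (Pts) and sepiapterin reductase (Spr) then complete the cofactor. Each time BH4 serves an aromatic amino acid hydroxylase it leaves oxidised, and the dehydratase encoded by Pcbd1 and the dihydropteridine reductase encoded by Qdpr return it to the reduced form. BH4 is the cofactor of the aromatic amino acid hydroxylases, of the nitric oxide synthases and of an ether-lipid monooxygenase.

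The arrays matched their labels. Angpt2 read 195 to 372 in the 3 controls and 100.2 to 122 in the 3 silenced cultures, with no overlap. Melanocyte markers were bright on every array (7 of 7 genes, 1387 to 9651), while 17 measured markers of leukocytes, endothelium, fibroblasts, keratinocytes and hepatocytes stayed between 45.2 and 102.6. No detection calls accompany the values, and array medians over all complete rows were 74.6 to 76.3, so signals as low as those 17 markers cannot be told from background. Groups did not overlap for 9.01% of all genes. Among the 17 they did not overlap for 2, the hepatocyte gene Ttr (log2 fold change 0.33, SE 0.09) and the epithelial gene Epcam (-0.32, SE 0.10). The same held for 1 of the 7 melanocyte genes, Mitf (-0.20, SE 0.08). None of the 3 passed the limma adjusted test, and their part in the results below was not tested. Fold changes compare arrays for 1 gene at a time. Levels of different genes depend on their probes and were not ranked, and the range of the 17 markers serves only as a guide to signals that may be background.

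Control replicate 1 stood apart in genes of the integrated stress response, a programme that the transcription factor ATF4 runs when amino acids or protein folding fail. The geometric mean intensity of 7 of these genes was 1413 on that array, against 307 on control replicate 2, 498 on control replicate 3 and 613, 358 and 692 on silenced replicates 1, 2 and 3. For each member, values that move with control replicate 1 or 2 are given below with and without them.

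Sequences upstream of 2 members are shown because these genes carry the patterns described below. Spr was the only member whose cultures did not overlap between the groups, and Gch1 had the widest spread among the control cultures. Each is the 250 bases before the RefSeq gene start (GRCm38.p6, minus strand, chr14:47189414-47189663 for Gch1 and chr6:85137765-85138014 for Spr), and capitals mark matches, on either strand, to any of the 7 motifs searched.
Gch1: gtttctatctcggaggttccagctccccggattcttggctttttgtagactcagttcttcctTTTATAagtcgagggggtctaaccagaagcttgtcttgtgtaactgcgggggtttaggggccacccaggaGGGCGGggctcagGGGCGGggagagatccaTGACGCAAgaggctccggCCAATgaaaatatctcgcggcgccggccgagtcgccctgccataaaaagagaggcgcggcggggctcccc
Spr: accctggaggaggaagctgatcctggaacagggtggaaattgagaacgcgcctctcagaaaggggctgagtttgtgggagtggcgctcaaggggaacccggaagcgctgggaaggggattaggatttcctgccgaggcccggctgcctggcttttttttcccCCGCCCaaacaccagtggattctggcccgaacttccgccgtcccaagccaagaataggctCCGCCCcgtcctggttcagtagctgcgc

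Both windows held 2 matches to the GC box (GGGCGG), which 32.7% of 32851 RefSeq windows of this length contain. Gch1 also held 1 CCAAT box (CCAAT, in 33.8% of windows), 1 TATA box on the opposite strand (TATAAA, in 12.4%) and 1 C/EBP-ATF element (TGANGCAA, in 3.12%), whose first base lay 88 bases before the start. None of the other 5 members had the letters of the C/EBP-ATF element in this window, and none of the 6 had the cAMP response element (TGACGTCA, in 1.55%), the E-box (CACGTG, in 6.02%) or the M-box (CATGTG, in 12.3%). No marked matches overlap in the 2 sequences shown. A match describes letters and is not a measured binding site.

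Spr, which encodes the sepiapterin reductase of the last synthetic step, had the clearest difference between the groups. The control cultures read 305, 314 and 273 in intensity (replicates 1, 2 and 3), and the silenced cultures read 415, 419 and 403. All 3 silenced cultures lay above all 3 controls, and the silenced cultures lay close together. The log2 mean was 8.21 ± 0.11 for controls and 8.69 ± 0.03 for silenced cultures (SD, n = 3 each), a log2 fold change of 0.47 (SE 0.09, 95% interval 0.28 to 0.67), or 1.39-fold higher.

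Within replicate numbers 1, 2 and 3 the log2 difference of Spr was 0.44, 0.41 and 0.56. Its unadjusted p in limma's moderated test was 3.98e-04, rank 6 of 22180 genes, and the limma adjusted p over all genes was 1.00, so Spr did not pass the threshold of 0.05. An exact permutation test over the arrays (two-sided) gave p = 0.1, as low as groups of 3 can reach. The pathway was singled out with earlier results of these data known. The p-values and rank of Spr, and the shares below, therefore describe it and are not independent evidence. Without control replicate 3, the lowest control for this gene, the log2 fold change was 0.41, and over every choice of arrays left out it stayed between 0.41 and 0.51. Arrays of both groups failed to overlap for 9.01% of all genes, with the silenced side above for 3.53% and below for 5.48%, and 0.167% of all genes had a log2 fold change at least as large as that of Spr.

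**Figure D1:**
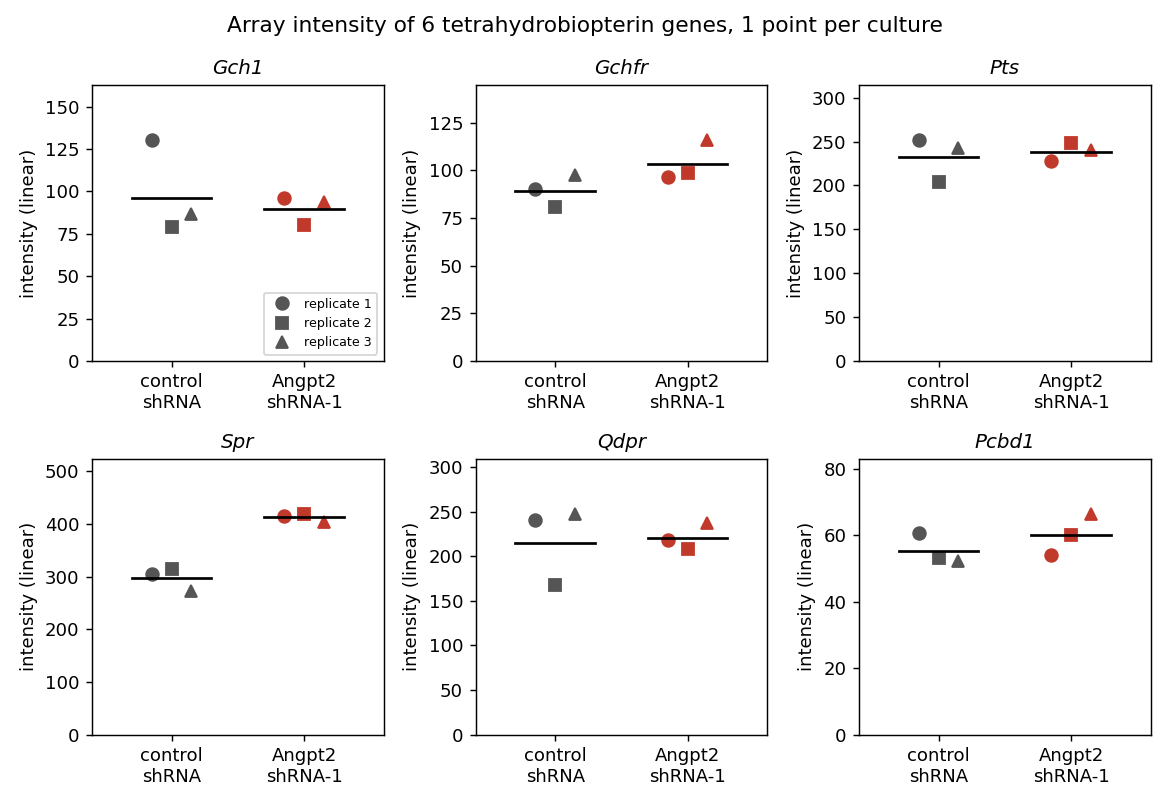
Intensity (linear scale, from 0) of each member in the 6 cultures, by shRNA; marker shapes give the replicate number and black bars the geometric mean of 3 cultures. Spr separates the groups (273 to 314 against 403 to 419), and the other 5 members overlap.

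Gch1, the gene of the rate-limiting cyclohydrolase, varied more among the control cultures than between the groups. The controls read 130, 79.1 and 86.7 in intensity, and the silenced cultures 96.2, 80.4 and 94.0, in order of replicate number. Control replicate 1 was the highest of the 6, as for 25.8% of all genes, and control replicate 2 the lowest, as for 19.1%. The silenced values thus lay inside the control range. The log2 mean was 6.59 ± 0.38 in controls and 6.49 ± 0.14 in silenced cultures (SD, n = 3 each), a log2 fold change of -0.10 (SE 0.17, 95% interval -0.49 to 0.29, limma adjusted p = 1.00). All Gch1 signals but that of control replicate 1 lie within the range of the 17 markers of other cell types, so its level is uncertain.

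The sign of the Gch1 difference rested on control replicate 1. It was 0.12 without that array, 0.07 without both replicate 1 arrays and -0.24 without control replicate 2. Within replicate numbers 1, 2 and 3 it was -0.44, 0.02 and 0.12. On control replicate 1 Gch1 lay 0.49 above its 6-array mean on the log2 scale, and the 7 stress response genes lay between 0.58 (Atf4) and 1.91 (the cystine transporter gene Slc7a11) above theirs. On control replicate 2 Gch1 was 0.23 below its mean, with the stress genes 0.56 to 1.22 below. On silenced replicate 2 it was 0.21 below, with the stress genes 0.13 to 1.08 below. Control replicate 3 had Gch1 at -0.10 from its mean and the stress genes at -0.44 to -0.05. Silenced replicates 1 and 3 had Gch1 at 0.05 and 0.01, with stress genes at -0.35 to 0.53 and at -0.03 to 0.52. Control replicate 2 was also low for Qdpr (-0.38), Gchfr (-0.25) and Pts (-0.21). The part of the stress signal in the values of Gch1 or the other members was not tested.

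**Figure D2:**
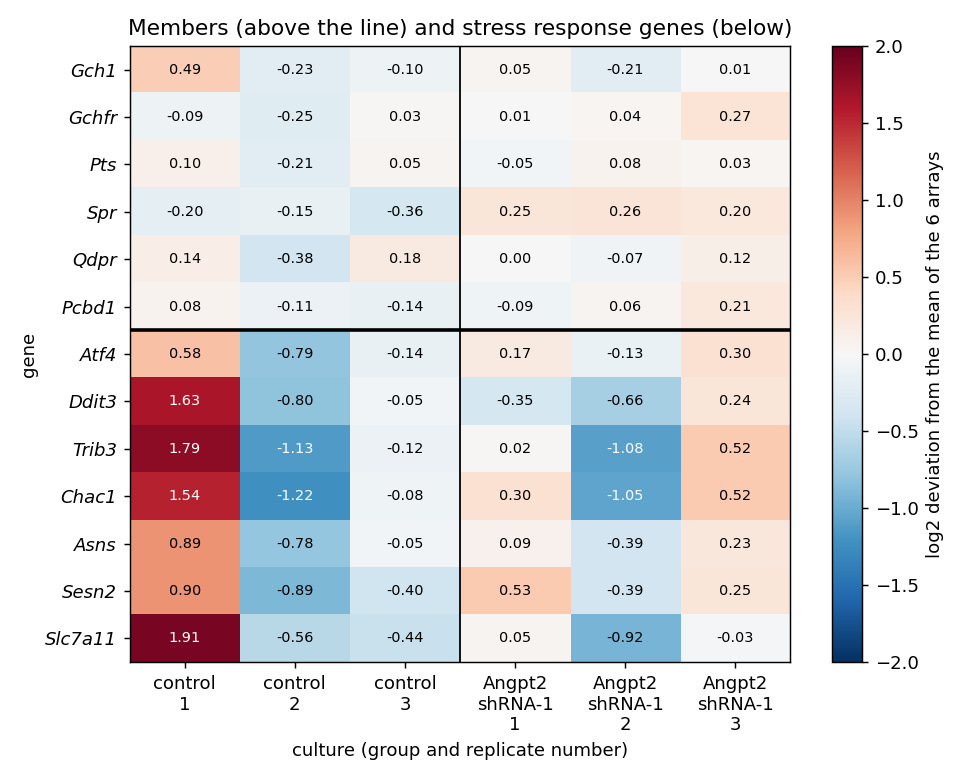
Log2 deviation of each gene (rows) from its mean over the 6 arrays, per culture (columns); members stand above the line and stress response genes below it. Gch1 is highest on control replicate 1 (0.49), where all 7 stress response genes and 25.8% of all genes are also highest. Spr is below its mean on all 3 controls and above it on all 3 silenced arrays.

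Gchfr, the feedback regulator of the cyclohydrolase, read higher in every replicate number but overlapped between groups. Controls read 90.0, 81.0 and 97.8, against 96.5, 98.6 and 116 for the silenced cultures with the same numbers. Silenced replicate 3 was the highest and control replicate 2 the lowest, and control replicate 3 lay above silenced replicate 1. The log2 fold change was 0.21 (SE 0.11, 95% interval -0.03 to 0.45), or 1.16-fold, and did not pass limma's test (unadjusted p = 0.0817, limma adjusted p = 1.00). The log2 difference was 0.10, 0.28 and 0.24 within replicate numbers 1, 2 and 3. The log2 fold change was 0.13 without silenced replicate 3 and 0.14 without control replicate 2. Spr and Gchfr were the 2 members with a positive difference in all 3 replicate numbers, a pattern that 10.3% of all genes showed. Most Gchfr signals lie within the range of the 17 markers of other cell types, so the level itself is uncertain.

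Pts, whose product makes the pyruvoyl intermediate between the cyclohydrolase and Spr steps, showed no group difference beyond its spread. The controls read 252, 204 and 243 and the silenced cultures 227, 248 and 240. Control replicates 1 and 2 were the highest and the lowest of the 6. The log2 fold change was 0.04 (SE 0.10, 95% interval -0.19 to 0.27), so differences beyond 1.20-fold higher lie outside the interval. It was -0.05 without control replicate 2 and 0.10 without control replicate 1.

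Of the recycling enzymes, Qdpr encodes the reductase that regenerates BH4. The control cultures read 240, 168 and 248, and the silenced ones 218, 208 and 238. Control replicate 2 was the lowest and the other controls were the 2 highest, so the silenced cultures fell between them. The log2 fold change was 0.04 (SE 0.15, 95% interval -0.29 to 0.37). It was 0.12 without control replicate 1, but turned to -0.14 without control replicate 2 and to -0.02 without silenced replicate 3, and array weights gave -0.0041.

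Pcbd1 encodes the dehydratase that acts before Qdpr in recycling and is also a dimerisation cofactor of the liver transcription factor HNF1. It was dim on every array, at 60.6, 53.3 and 52.2 in controls and 54.2, 59.9 and 66.4 in silenced cultures. These signals lie inside the range of the 17 markers of other cell types and cannot be told from background. The log2 fold change was 0.12 (SE 0.10, 95% interval -0.12 to 0.36). The log2 differences within replicate numbers 1, 2 and 3 were -0.16, 0.17 and 0.35. Without control replicate 1 the log2 fold change was 0.19. It was 0.26 without both replicate 1 arrays and 0.0036 without both replicate 3 arrays. Pcbd1 was the 1 member that missed a filter at the 33rd percentile of level, and the other 5 passed it and the filter at the median.

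Across the members, 5 of 6 log2 fold changes were positive with a median of 0.08, against 45.2% positive and a median of -0.01 over all genes. The 95% interval included 0 for 5 of the 6, all but Spr. None of the 6 passed the limma adjusted threshold, which 0 of 22180 genes passed (0%), while 835 genes (3.76%) had an unadjusted p under 0.05, 1.52% on the higher and 2.24% on the lower side. Among the members this unadjusted level was met by 1 of 6, Spr. With the replicate number as a block it was met by 2 of 6, Spr and Gchfr, against 1015 of all genes (4.58%). It was also met by 2 of 6 without both replicate 1 arrays, by Spr and Pcbd1, against 738 of all 22180 genes. Without control replicate 3 it was met by 2 of 6, Spr and Gchfr, against 1275 of all genes.

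The members also varied between cultures of 1 group. The SD of log2 values within groups, pooled over both, was 0.29 for Gch1, 0.23 for Qdpr, 0.14 for Gchfr, 0.13 for Pcbd1, 0.12 for Pts and 0.08 for Spr. The median over all genes was 0.12, which 5 of 6 members exceeded, Pts only narrowly, and Spr did not. The control SD was larger than the silenced SD in 4 of 6, against 63.2% of all genes. Control replicate 2 was the lowest array for 4 members (Gch1, Gchfr, Pts and Qdpr), where it was lowest for 19.1% of all genes, and the median deviation of the 6 members there was -0.22.

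**Figure D3:**
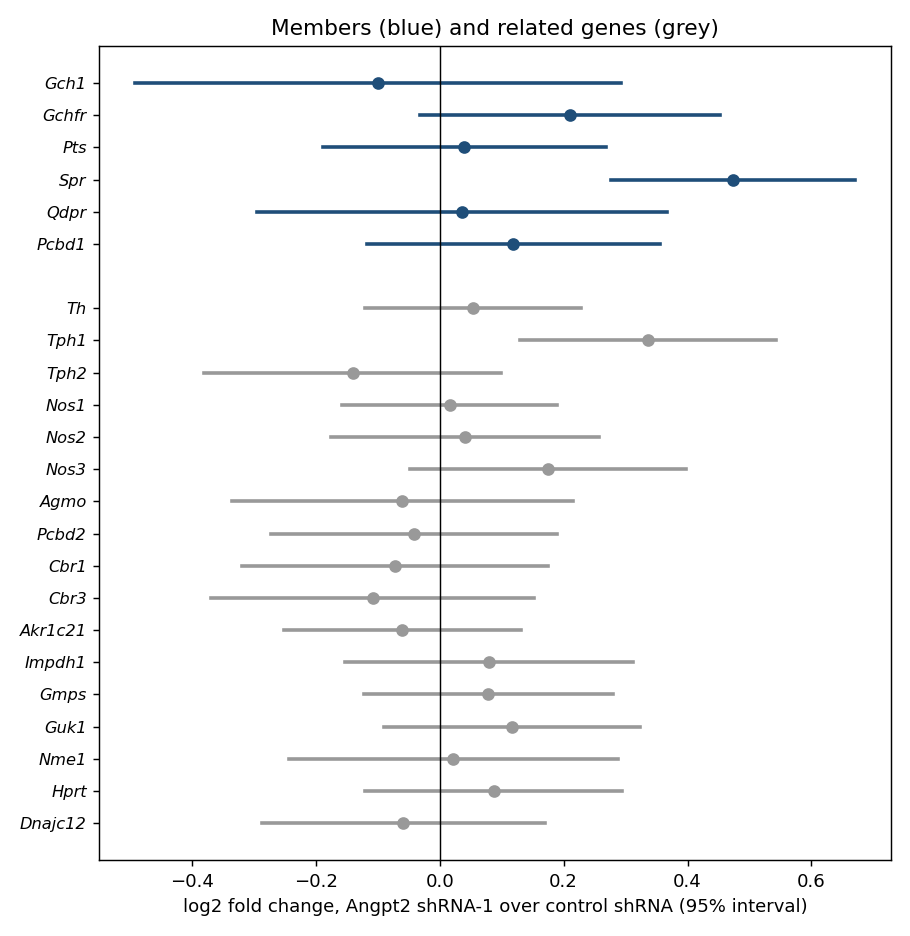
Log2 fold change of Angpt2 shRNA-1 over control shRNA with its 95% interval from limma (3 arrays per group), for the 6 members (blue) and 17 related genes (grey). The intervals of Spr (0.28 to 0.67) and Tph1 (0.13 to 0.54) lie above 0, and the others include 0.

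Of 22 related genes listed for the pathway, 17 were measured and the other 5 were not analysed here. By limma 0 of 17 were called higher and 0 lower, where 0 of 22180 genes were called in all. An unadjusted p under 0.05 was found for 1 of the 17, against 3.76% of all genes. The log2 fold change was positive for 10 and negative for 7, with a median of 0.02, against 45.2% positive and a median of -0.01 over all genes.

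The enzymes that use BH4 were dim. All 7 measured (Th, Tph1, Tph2, Nos1, Nos2, Nos3 and Agmo) lay between 45.9 and 121, a range that largely overlaps the markers of other cell types. Tph1, a tryptophan hydroxylase of serotonin synthesis, read 71.9, 74.5 and 64.9 in controls and 83.0, 92.1 and 91.4 in silenced cultures. The groups did not overlap, with a log2 fold change of 0.34 (SE 0.09). Its limma adjusted p was 1.00 and it was the 1 related gene with an unadjusted p under 0.05. These signals are too low to be told from background. Th, the tyrosine hydroxylase of catecholamine synthesis, also did not overlap, but its log2 fold change was 0.05 (SE 0.08). Over all genes, 9.01% had groups that did not overlap. Nos3, the endothelial nitric oxide synthase, was at 0.17 (SE 0.10) and Tph2, the neuronal tryptophan hydroxylase, at -0.14 (SE 0.11). The inducible synthase Nos2, the neuronal synthase Nos1 and the ether-lipid monooxygenase Agmo had log2 fold changes of 0.04, 0.02 and -0.06. Nos2 turned to -0.03 without control replicate 2 and Agmo to 0.04 without control replicate 1. Without both replicate 3 arrays Nos3 was at 0.05 and Tph2 at -0.04.

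Genes that supply GTP to the cyclohydrolase read 163 to 1273, and none passed the test. All 5 measured had positive log2 fold changes, as did 45.2% of all genes, and the SEs of the 5 were 0.09 to 0.12. Guk1 (guanylate kinase) was at 0.12, Hprt (purine salvage) at 0.09 and Gmps (GMP synthase) at 0.08. Impdh1 (an inosine monophosphate dehydrogenase of the step that commits purines to guanine nucleotides) was at 0.08. Nme1 (a nucleoside diphosphate kinase) was at 0.02. Gmps, for example, read 1145, 1076 and 1217 in controls and 1135, 1221 and 1273 in silenced cultures. The ranges of the groups overlap for each of the 5, and Nme1, which has a close paralog in Nme2, turned to -0.09 without control replicate 1. Without that array Impdh1 was at 0.0016, and without both replicate 2 arrays Gmps was at 0.03 and Hprt at 0.03.

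The 4 measured genes of side routes all had negative log2 fold changes that did not pass the test, where 45.2% of all genes were positive. Pcbd2, the paralog of Pcbd1, was at -0.04 (SE 0.10), the carbonyl reductase genes Cbr1 and Cbr3 at -0.07 (SE 0.11) and -0.11 (SE 0.12), and Akr1c21 at -0.06 (SE 0.09). Averaging all rows of a gene turned Cbr1 to 0.17, so its rows disagree. Pcbd2 turned to 0.06 without control replicate 1, and Cbr1 and Cbr3 also turned when both arrays of 1 replicate number were left out. Dnajc12, a co-chaperone of the aromatic amino acid hydroxylases, was at -0.06 (SE 0.10), and at -0.0050 without control replicate 1.

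Profiles most like each member were found by the root mean square (RMS) difference of log2 deviations over the 6 arrays, for the 5 members (all but Pts) whose SD over all 6 arrays was above the median of all genes. The nearest to Gch1 were Ttc32 (RMS difference 0.03), Gm14744 (0.03) and Shmt2 (0.04), the gene of mitochondrial serine hydroxymethyltransferase, where the median over all genes was 0.26. Shmt2 read 4415, 2718 and 2962 in controls and 3297, 2896 and 3099 in silenced cultures. Picked for likeness to Gch1, all 3 were also highest on control replicate 1, as were 25.8% of all genes. Ttc32 and Shmt2 were lowest on control replicate 2, and Gm14744 was lowest on silenced replicate 2. The nearest to Spr were farther away: Ankrd1 (RMS difference 0.07), Gm6644 (0.08) and Mthfsl (0.08), against a median of 0.27. Picked for likeness to Spr, all 3 also lay higher in every silenced culture than in any control, so this separation follows from the choice. Mthfsl was at 152, 139 and 136 in controls against 179, 190 and 180.

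The nearest profiles to Gchfr were Bid, Gm9918 and Gm9372 (RMS difference 0.03 to 0.04). Those nearest to Qdpr were Fbxo2, Rgr and Nudt2 (each 0.04), and those nearest to Pcbd1 were Odf3b, Pigp and AW495222 (each 0.03). With 6 arrays and 22180 genes, close profiles are found for any member, and the likeness is given as a description.

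**Figure D4:**
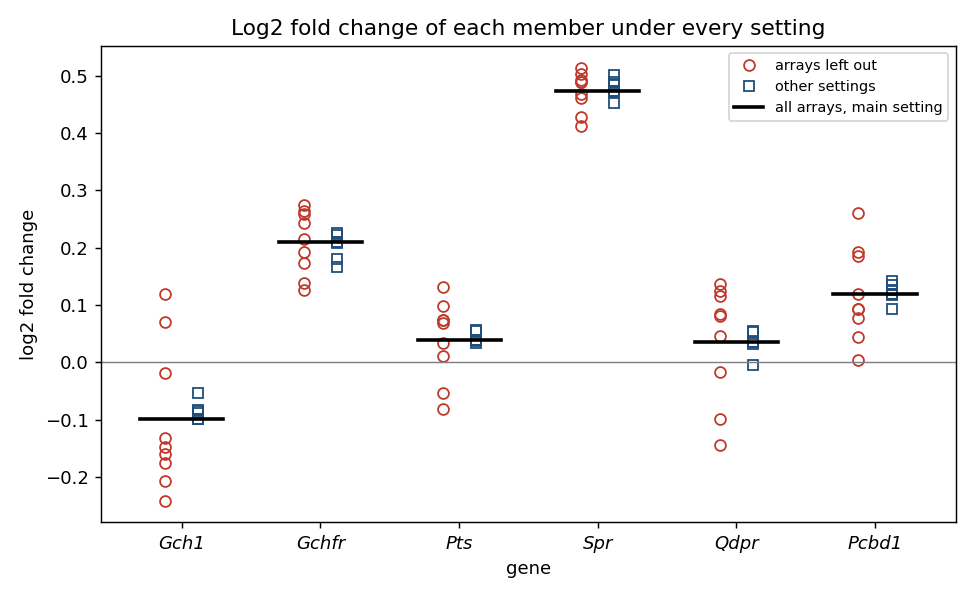
Log2 fold change of each member with all arrays (black bar), with arrays left out (red circles) and under other settings (blue squares). Spr stays between 0.41 and 0.51, Gchfr and Pcbd1 stay above 0, and Gch1, Pts and Qdpr appear on both sides of 0.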

How the data were processed

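The authors deposited 1 normalized intensity per array row, and the values show a linear rather than log scale. Background correction, probe summary, normalization and genome build are not given in the sources used here. Of 41345 rows, 23521 had exactly 1 gene symbol in the platform annotation, and the complete row with the highest mean was kept for each of 22180 genes. The log2 of each value, with nothing added, entered limma 3.58.1 under R 4.3.3 (lmFit, then eBayes). Tests were two-sided, and p-values were adjusted by Benjamini-Hochberg over the whole table, with 0.05 as the threshold. The fit was tested on simulated data. Exact permutation tests over arrays were run beside it.

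Members and lists were chosen with earlier results of these data known, as were the motifs. Named genes are the members, every measured gene of the related lists, Angpt2, and for each member with an SD above the median the 3 nearest profiles. Other genes named were chosen after their values were seen.

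Deviations from group means correlated at 0.13, 0.21 and 0.14 between arrays sharing a replicate number. Each of these was the highest correlation of either array with an array of the other group. The labels name no shared day. The fit behind the printed values has no block, and blocked values stand beside a result where a count of members differs. With the block the SE was 0.12 for Gch1, 0.09 for Gchfr, 0.11 for Pts, 0.09 for Spr, 0.11 for Qdpr and 0.11 for Pcbd1. Alternatives were the replicate block, quantile normalization, median centring, 2 filters on dim genes, the mean of all rows, all 40425 complete rows, array weights, eBayes with trend and robust estimation, pseudocounts of 1 and 16, and arrays left out singly or by number. The number of arrays limits the precision.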

Additional observations from a re-analysis of the deposited data

How the results depend on the processing

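The 6 members and the 17 related genes stayed uncalled under each of the 20 alternatives in which they were tested, and the counts of called members and related genes were 0 throughout. Spr ranged from 0.45 to 0.50 in log2 fold change under the alternatives that kept all arrays and from 0.41 to 0.51 with arrays left out, with limma adjusted p from 0.730 to 1.00. With arrays left out the ranges were -0.24 to 0.12 for Gch1, -0.081 to 0.13 for Pts and -0.14 to 0.14 for Qdpr, which was -0.0041 with array weights. They were -0.032 to 0.13 for Nos2, -0.16 to 0.038 for Agmo (0.0023 with array weights), -0.11 to 0.057 for Pcbd2, -0.18 to 0.051 for Cbr1 (0.17 with the mean of all rows), -0.23 to 0.0022 for Cbr3, -0.089 to 0.13 for Nme1 and -0.15 to 0.021 for Dnajc12. Without a turn, they were 0.13 to 0.28 for Gchfr, 0.0036 to 0.26 for Pcbd1, 0.0016 to 0.15 for Impdh1 and 0.03 to 0.12 for Gmps. The cause of these turns and shifts was not tested.

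With the replicate block 2 genes were called over all genes, Pld4 and Angpt2, the latter at -1.33 with adjusted p = 0.046, and the pairing changed no call of a member. Quantile normalization, median centring and the trend and robust options each called 1 gene, Pld4. With arrays left out the number called ran from 0 to 2, and Angpt2 from -1.61 to -1.14. Intensities near those of the markers of other cell types limit what Gch1, Gchfr, Pcbd1 and the BH4-using enzymes can show.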
